A study of Mus musculus with 11 samples.

Results

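Cd27, Ltb, Il7r, Dntt, Satb1, Ikzf1, Notch1, Cd52 and Limd2 are genes that lymphoid-primed progenitors or lymphocytes are known to use, and all 9 were found among the 49585 entries of the gene count table by their Ensembl identifiers. They were followed in haematopoietic stem cells of C57BL/6 mice, the bone marrow cells that are Lin- c-Kit+ Sca-1+ CD150+ and lack CD48, which were sorted into CD41+ and CD41- fractions. Control CD41- cells (3 libraries) and control CD41+ cells (2 libraries) came from mice given control rabbit serum. Depleted CD41- cells (3 libraries) and depleted CD41+ cells (3 libraries) came from mice whose platelets had been depleted 24 h earlier. Each library was made from RNA of 1000 sorted cells, with cells of 3 mice in each sample. The labels call the samples biological replicates and give neither the depleting agent nor the age or sex of the mice.

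Blood stem cells are known to transcribe low levels of genes of several lineages before they commit, which is called priming. Lymphoid priming is best described in multipotent progenitors that carry Flt3, which go on to switch on Il7r, Dntt and the recombinase genes. CD41, the alpha chain of a platelet integrin, is known to mark stem cells with a bias towards megakaryocytes and other myeloid cells, and the comparison of CD41+ with CD41- cells therefore shows how lymphoid transcripts stand in both kinds of stem cell and how they stand a day after platelet loss.

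Deposited counts per library ran from 0.974 M (depleted CD41+ replicate 1) to 9.95 M (depleted CD41- replicate 1). Levels are given as CPM, counts scaled by TMM to a common library total, with mean ± SD where a group is summarised, and 3 counts, the limit that a count of 0 allows, stood for between 0.306 and 3.34 CPM. Such limits include no more than counting error, because PCR copies were not told apart by molecular identifiers. Differences are log2 fold changes ± SE from the quasi-likelihood test of edgeR, with p-values adjusted by Benjamini-Hochberg over 13448 genes, and called means an adjusted p under 0.05. Itga2b, which encodes CD41, was higher in CD41+ cells by 2.41 ± 0.18 (adjusted p = 2.01e-05), the direction that the labels give. Averaged over both fractions, Itga2b was lower after depletion (-0.79 ± 0.18, adjusted p = 0.0187). Of the other genes of the sort, Ly6a (Sca-1) was lower in CD41+ cells (-1.47 ± 0.26, adjusted p = 0.00794). Slamf1 (CD150) was higher in them on average (0.75 ± 0.19, adjusted p = 0.0362). It was called within control mice (1.31 ± 0.28, adjusted p = 0.025) but not within depleted mice (0.18 ± 0.26, adjusted p = 0.898), where the fractions overlapped. Kit (-0.53 ± 0.42, adjusted p = 0.487) and Cd48 (0.57 ± 0.35, adjusted p = 0.352) were not called. Group means of Cd48 ran from 25.7 to 62.5 CPM. The RNA is that of whole sorted pools, so fewer cells with a transcript and less of it per cell cannot be told apart.

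Ltb, Cd27, Limd2 and Satb1 were lower in CD41+ than in CD41- stem cells. Ltb, Cd27 and Limd2 were also lower after platelet depletion, so that control CD41- cells had the highest and depleted CD41+ cells the lowest mean of each. Ltb in depleted CD41+ cells was at 14.5% of its mean in control CD41- cells, Satb1 at 18.8%, Limd2 at 32.9% and Cd27 at 35.5%. Il7r, Dntt, Ikzf1, Notch1 and Cd52 were not called in either average comparison.

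**Figure D1:**
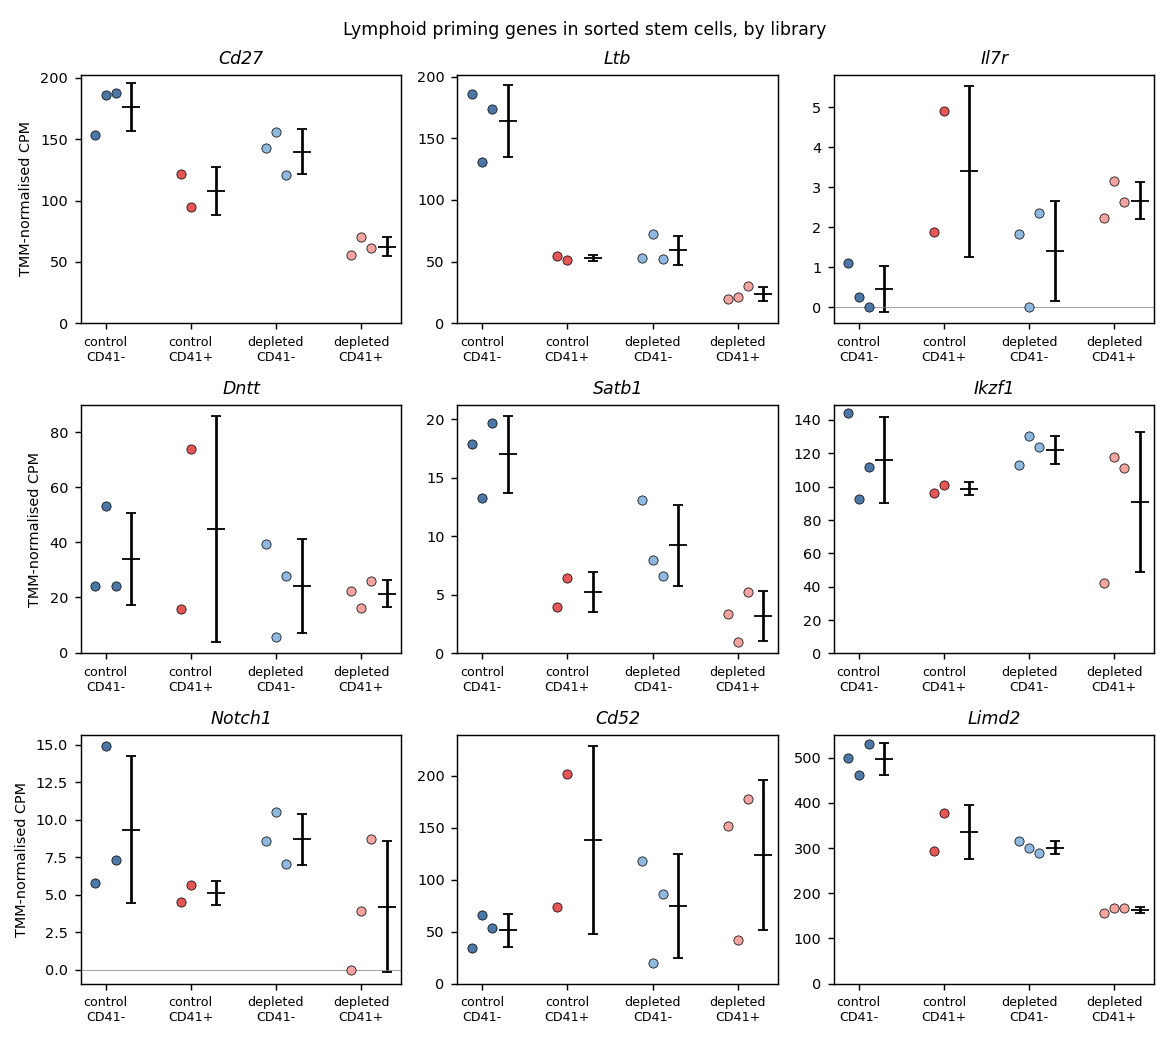
Each panel plots 1 gene, with TMM-normalised CPM on the vertical axis, a point for each library and a bar for the mean ± SD of each group. Limd2 falls from 461 to 529.7 CPM in control CD41- cells to 156 to 168 CPM in depleted CD41+ cells, while Dntt and Cd52 spread widely within groups.

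The stretches around the annotated starts of these 4 genes are shown because their transcripts moved together. Each window runs from 250 bases before to 50 bases after the start, as RefSeq lists it on GRCm38.p6, written 5′ to 3′ on the strand of the gene. Capitals mark GGGAA or, on the opposite strand, TTCCC, the core of the binding motif of Ikaros, the protein of Ikzf1. The same letters also occur inside motifs of other factors, such as RBPJ, the DNA-binding partner of Notch, and ETS proteins. The Ltb window lies at chr17:35194257-35194556 on the plus strand, and the others lie on the minus strand, Cd27 at chr6:125236978-125237277, Satb1 at chr17:51833241-51833540 (the outermost of 5 listed windows) and Limd2 at chr11:106160680-106160979 (the outermost of 3).
Ltb: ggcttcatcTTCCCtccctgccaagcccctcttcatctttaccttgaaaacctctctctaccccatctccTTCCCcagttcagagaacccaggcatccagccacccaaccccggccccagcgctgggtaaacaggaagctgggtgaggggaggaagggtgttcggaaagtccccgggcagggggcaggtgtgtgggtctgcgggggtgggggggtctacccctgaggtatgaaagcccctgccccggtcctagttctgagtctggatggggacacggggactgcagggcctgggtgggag
Satb1: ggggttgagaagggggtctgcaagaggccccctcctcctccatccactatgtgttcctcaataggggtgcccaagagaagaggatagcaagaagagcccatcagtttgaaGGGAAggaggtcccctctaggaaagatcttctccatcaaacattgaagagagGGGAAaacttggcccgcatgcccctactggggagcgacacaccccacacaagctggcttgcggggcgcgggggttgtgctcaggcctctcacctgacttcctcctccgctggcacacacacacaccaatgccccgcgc
Cd27: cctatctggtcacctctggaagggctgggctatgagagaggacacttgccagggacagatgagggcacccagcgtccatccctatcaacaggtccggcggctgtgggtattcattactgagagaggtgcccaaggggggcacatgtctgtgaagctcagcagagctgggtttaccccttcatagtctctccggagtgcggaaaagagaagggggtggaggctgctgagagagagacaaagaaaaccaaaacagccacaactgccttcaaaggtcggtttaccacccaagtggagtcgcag
Limd2: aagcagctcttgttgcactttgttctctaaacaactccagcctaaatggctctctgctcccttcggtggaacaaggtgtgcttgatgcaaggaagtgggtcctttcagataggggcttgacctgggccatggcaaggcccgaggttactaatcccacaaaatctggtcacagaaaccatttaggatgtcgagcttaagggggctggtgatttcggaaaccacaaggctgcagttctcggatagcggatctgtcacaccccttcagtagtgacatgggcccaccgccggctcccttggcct
The Ltb and Satb1 windows each held 2 matches, and those of Cd27 and Limd2 held 0, which says only that these letters do not occur in those 300 bases. Of the 8 genes with a window, 4 held at least 1 match (Ltb, Satb1, Il7r with 2 and Dntt with 1), and 62.7% of all 32851 windows did so. For Cd52 no window was listed.

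Ltb (ENSMUSG00000024399, GRCm38 chr17:35194439-35196320, plus strand) encodes lymphotoxin beta, a membrane-bound TNF family ligand that lymphoid cells use to signal to stromal cells in lymphoid organs. It stood at 186, 131 and 174 CPM in the control CD41- libraries and at 54.8 and 51.3 CPM in the control CD41+ libraries. After depletion it stood at 52.8, 72.7 and 52.3 CPM in CD41- cells and at 20.0, 21.0 and 30.3 CPM in CD41+ cells. The control CD41- libraries thus lay above all others, the depleted CD41+ libraries lay below all others, and the 2 groups between them overlapped. The CD41 difference averaged over both treatments was -1.46 ± 0.17 (adjusted p = 0.00069), and the depletion difference averaged over both fractions was -1.30 ± 0.16 (adjusted p = 0.000887). Both calls held whichever of the 11 libraries was left out.

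Cd27 (ENSMUSG00000030336, chr6:125232622-125237010, minus strand) encodes a TNF receptor family member of T cells and of stem and progenitor cells, whose ligand is CD70. Its levels were 153, 186 and 188 CPM in control CD41- libraries, and 122 and 94.7 CPM in control CD41+ libraries. In depleted mice they were 143, 156 and 120.4 CPM in CD41- libraries, and 55.6, 70.6 and 61.2 CPM in CD41+ libraries. Depleted CD41- cells overlapped with both control groups, whereas the depleted CD41+ libraries lay below every other library. The depletion difference averaged -0.56 ± 0.13 (adjusted p = 0.0233). That call was lost without control CD41+ replicate 1 (-0.44, adjusted p = 0.14), depleted CD41- replicate 1 (adjusted p = 0.0593), depleted CD41- replicate 3 (adjusted p = 0.0705) or depleted CD41+ replicate 3 (adjusted p = 0.0588). The CD41 difference averaged -0.92 ± 0.13 (adjusted p = 0.00232) and was called whichever library was left out.

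Limd2 (ENSMUSG00000040699, chr11:106156256-106160860, minus strand) encodes a small protein with a LIM domain. Control CD41- libraries held 500.0, 461 and 529.7 CPM, and control CD41+ libraries held 294 and 378 CPM. Depleted CD41- libraries held 316, 299.9 and 288 CPM, and depleted CD41+ libraries held 156, 168 and 167 CPM. As for Ltb, control CD41- cells were above and depleted CD41+ cells below all other libraries, with overlap between the remaining groups. The averaged differences were -0.72 ± 0.11 for CD41 (adjusted p = 0.00284) and -0.88 ± 0.11 for depletion (adjusted p = 0.000749), and both were called in each of the 11 fits without 1 library.

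Satb1 (ENSMUSG00000023927, chr17:51736187-51833290, minus strand) encodes a chromatin organiser that is known for its part in T cell development and in the lymphoid potential of stem cells. It was a low transcript, at 17.9, 13.3 and 19.7 CPM in control CD41- libraries and at 4.01 and 6.45 CPM in control CD41+ libraries. It stood at 13.1, 7.96 and 6.62 CPM in depleted CD41- libraries and at 3.34, 0.98 and 5.24 CPM in depleted CD41+ libraries, the last from counts of 3, 5 and 18. CD41+ libraries lay below CD41- libraries within each treatment, but control and depleted CD41+ libraries overlapped. The CD41 difference averaged -1.65 ± 0.41 (adjusted p = 0.0316), and the depletion difference of -0.82 ± 0.40 did not pass (adjusted p = 0.253). The CD41 call was lost without control CD41- replicate 1 (adjusted p = 0.0579) or 3 (adjusted p = 0.0621), control CD41+ replicate 1 (adjusted p = 0.118) or 2 (adjusted p = 0.0779), and depleted CD41- replicate 1 (adjusted p = 0.0792) or 2 (adjusted p = 0.0565).

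**Figure D2:**
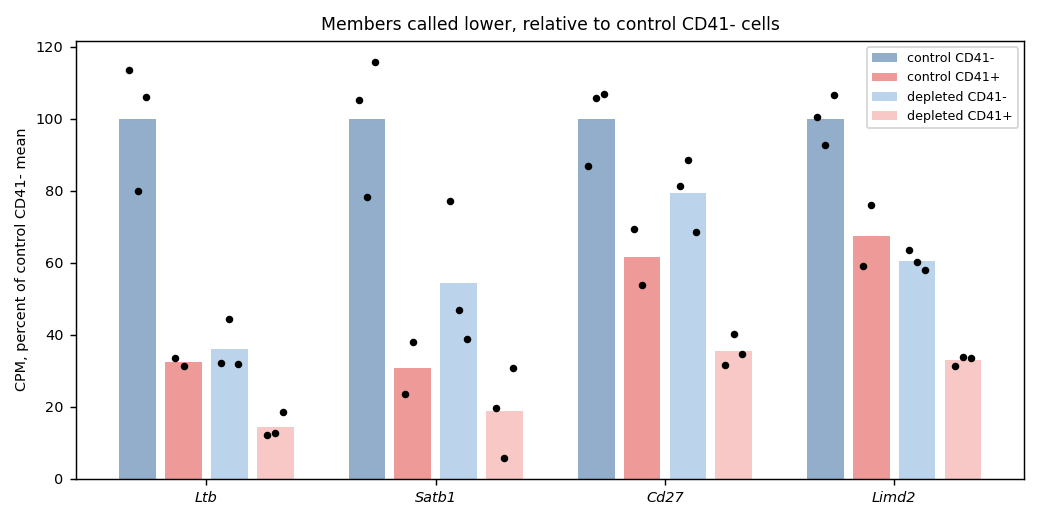
The bars show the group means of Ltb, Satb1, Cd27 and Limd2 as a percent of the control CD41- mean of the same gene, and the points show single libraries. Depleted CD41+ cells have the lowest bar of each gene, from 14.5% for Ltb to 35.5% for Cd27.

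Averaged over treatments, 4 of the 9 genes were called lower in CD41+ cells and 0 higher, where 2.65% of all genes tested were called lower and 2.73% higher. The median log2 fold change of the 9 was -0.72, against -0.03 over all genes. Scaling by library size alone moved the median of the 9 to -0.82, that of all genes to -0.12 and the calls from 367 higher and 357 lower to 250 higher and 445 lower, with the 4 genes still called lower. In control mice it moved the calls from 212 higher and 140 lower to 129 higher and 157 lower. The CD41+ libraries of Ltb, Cd27, Limd2 and Satb1 also lay below the CD41- libraries without overlap within both treatments, which held for 3.77% of all genes. For depletion the same held within both fractions for Ltb and Limd2, and for 3.91% of all genes. Averaged over fractions, 3 of the 9 were called lower after depletion, against 2.73% of all genes, and 0 were called higher, against 3.6%. Their median was -0.56, and that of all genes was -0.0089. These comparisons use the same 11 libraries. The 9 genes were also chosen with earlier results of these data known. Their shares beside those of all genes, here and below, are therefore no independent evidence.

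**Figure D3:**
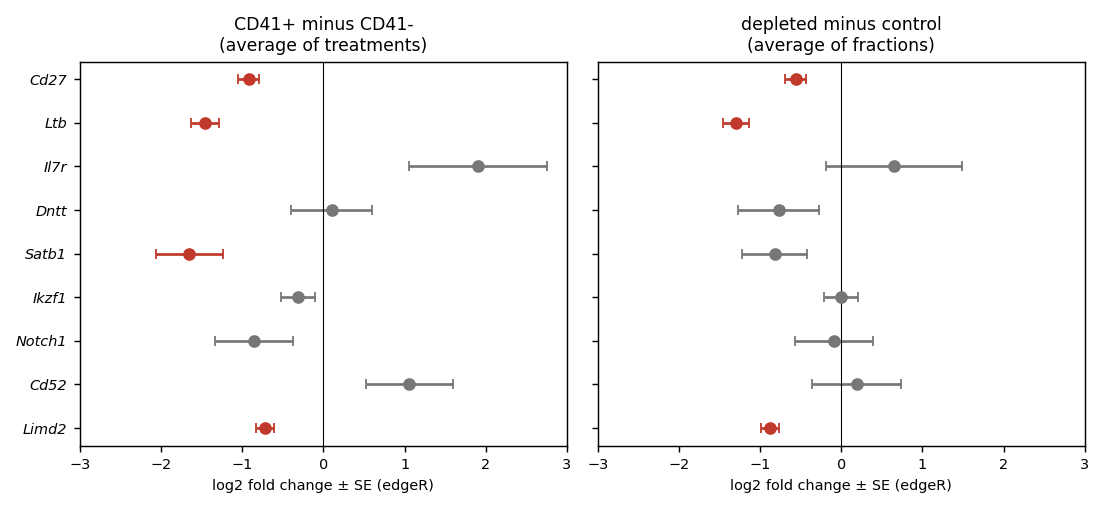
Points show the log2 fold change of each of the 9 genes with its SE, on the left for CD41+ minus CD41- cells averaged over treatments and on the right for depleted minus control mice averaged over fractions, in red where called. The red points, 4 on the left and 3 on the right, all lie below 0.

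Within control mice, 1 of the 9, Ltb, was called lower in CD41+ cells (-1.63 ± 0.25, adjusted p = 0.00516), against 1.04% of all genes, and it was not called without control CD41+ replicate 2 (adjusted p = 0.0705). Cd27 (-0.70, adjusted p = 0.0755), Limd2 (-0.57, adjusted p = 0.0768) and Satb1 (-1.69, adjusted p = 0.137) did not pass there. Within depleted mice, 3 of the 9 were called lower in CD41+ cells, against 0.126% of all genes. These were Cd27 (-1.15 ± 0.18, adjusted p = 0.017), Limd2 (-0.88 ± 0.14, adjusted p = 0.0276) and Ltb (-1.29 ± 0.23, adjusted p = 0.0407), and Satb1 was at -1.60 (adjusted p = 0.343). The depleted-mice calls leaned on single libraries, since Limd2 lost its call without any of the 6 depleted libraries (adjusted p from 0.0602 to 0.143). Cd27 lost its call without depleted CD41- replicate 1 (adjusted p = 0.114) or 2 (adjusted p = 0.127) and without depleted CD41+ replicate 1 (adjusted p = 0.07) or 3 (adjusted p = 0.108). Ltb kept its call only without control CD41- replicate 2 or 3 (adjusted p up to 0.17 without another library).

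After depletion, 2 of the 9 were called lower in CD41- cells, against 0.892% of all genes. Ltb changed by -1.47 ± 0.21 (adjusted p = 0.00198), and was called whichever library was left out. Limd2 changed by -0.72 ± 0.14 (adjusted p = 0.0127), which was not called without control CD41- replicate 3 (adjusted p = 0.0511) or without depleted CD41- replicate 1 (adjusted p = 0.0553), 2 (adjusted p = 0.051) or 3 (adjusted p = 0.0774). Cd27 (-0.33, adjusted p = 0.357) and Satb1 (-0.86, adjusted p = 0.404) did not pass. In CD41+ cells, 1 of the 9 was called lower, Limd2 (-1.04 ± 0.16, adjusted p = 0.0239), against 0.0669% of all genes. It lost that call without control CD41- replicate 1 (adjusted p = 0.0501), control CD41+ replicate 1 (adjusted p = 0.216) or 2 (adjusted p = 0.202), depleted CD41- replicate 1 (adjusted p = 0.068) or 3 (adjusted p = 0.0519), or depleted CD41+ replicate 2 (adjusted p = 0.102) or 3 (adjusted p = 0.129), and in a fit on the CD41+ groups alone (adjusted p = 0.268). Ltb was at -1.13 in CD41+ cells (adjusted p = 0.114), Cd27 at -0.78 (adjusted p = 0.157) and Satb1 at -0.77 (adjusted p = 0.658).

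Whether the depletion response differed between CD41+ and CD41- cells was tested on its own. The CD41+ minus CD41- difference of the responses was -0.45 ± 0.26 for Cd27 (adjusted p = 0.875), 0.34 ± 0.33 for Ltb (adjusted p = 0.946), -0.31 ± 0.21 for Limd2 (adjusted p = 0.891) and 0.09 ± 0.84 for Satb1 (adjusted p = 0.997). By edgeR, 0 of the 9 and 0 of all genes were called (0%), while 6.13% of all genes had an unadjusted p under 0.05, and DESeq2 called 34 genes. A difference between the responses was thus not detectable for these genes.

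Il7r (ENSMUSG00000003882, chr15:9505788-9530176, minus strand) encodes the interleukin 7 receptor alpha chain, which early lymphoid progenitors need. It was close to the limit of counting, with 4, 1 and 0 counts in the control CD41- libraries and 7 and 19 counts in the control CD41+ libraries. In depleted mice it had 18, 0 and 10 counts in CD41- cells and 2, 16 and 9 in CD41+ cells, and the highest level of any library was 4.90 CPM. The CD41 difference of 1.90 ± 0.85 did not pass (adjusted p = 0.198), nor did the depletion difference of 0.65 ± 0.84 (adjusted p = 0.716).

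Dntt (ENSMUSG00000025014, chr19:41029275-41059525, plus strand) encodes terminal deoxynucleotidyl transferase, the enzyme that adds bases at the joints of rearranged antigen receptor genes. Its levels were 24.2, 53.1 and 24.1 CPM in control CD41- libraries and 15.8 and 73.8 CPM in control CD41+ libraries. They were 39.4, 5.65 and 27.7 CPM in depleted CD41- libraries and 22.2, 16.1 and 25.9 CPM in depleted CD41+ libraries. All groups overlapped, and libraries of 1 group differed as much as the groups did. The CD41 difference was 0.10 ± 0.50 (adjusted p = 0.929). The depletion difference was -0.77 ± 0.50 (adjusted p = 0.413), and the fit without a filter on low counts called it (-0.75, adjusted p = 0.0442).

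Cd52 (ENSMUSG00000000682, chr4:134082448-134095082, minus strand) encodes a short GPI-anchored glycopeptide of lymphocytes and some myeloid cells. It stood at 34.7, 66.0 and 53.8 CPM in control CD41- libraries, and at 74.0 and 202 CPM in control CD41+ libraries. It stood at 118, 20.1 and 86.6 CPM in depleted CD41- libraries, and at 152, 42.3 and 178 CPM in depleted CD41+ libraries. CD41+ cells lay above CD41- cells without overlap in control mice but not in depleted mice. The CD41 difference was 1.06 ± 0.54 (adjusted p = 0.281), and it was called without a filter on low counts (1.05, adjusted p = 1.09e-07) and with a block for consecutive sample numbers (1.10, adjusted p = 0.0024). The depletion difference was 0.19 ± 0.55 (adjusted p = 0.891).

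Transcripts of neutrophils moved with Cd52 from library to library. The summed level of 12 neutrophil genes, all with counts in every group, ran from 9104 to 15741 CPM in control CD41- cells, 25734 to 89105 CPM in control CD41+ cells, 4618 to 38814 CPM in depleted CD41- cells and 16002 to 53982 CPM in depleted CD41+ cells. Control CD41+ replicate 2 was highest and depleted CD41- replicate 2 lowest both in that sum and in Cd52 and Dntt. Over the 11 libraries the log2 level of Cd52 correlated with the log2 sum at r = 0.98, and that of Dntt at r = 0.65. That of Il7r, from few counts, correlated with it at r = 0.75. The 3 genes most like Cd52 were Tyrobp (r = 0.990), Trem3 (r = 0.984) and S100a8 (r = 0.984), which myeloid cells express. Against the same sum the correlation was -0.61 for Cd27, -0.53 for Ltb, -0.36 for Limd2 and -0.26 for Satb1, over libraries that share the 4 groups. With the log2 sum as a covariate, an alternative chosen after seeing the data, the CD41 difference was -0.33 for Cd52 (adjusted p = 0.44) and -1.11 for Dntt (adjusted p = 0.157). For the genes called lower it was -0.79 for Cd27 (adjusted p = 0.0363), -1.32 for Ltb (adjusted p = 0.0137), -0.78 for Limd2 (adjusted p = 0.0263) and -2.21 for Satb1 (adjusted p = 0.0504). Within depleted mice the covariate left 0 of the 9 called, with -1.05 for Cd27 (adjusted p = 0.0519), -0.92 for Limd2 (adjusted p = 0.0513) and -1.18 for Ltb (adjusted p = 0.118). Their averaged depletion differences with the covariate were -0.56 for Cd27 (adjusted p = 0.0183), -1.31 for Ltb (adjusted p = 0.000931) and -0.87 for Limd2 (adjusted p = 0.000931).

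**Figure D4:**
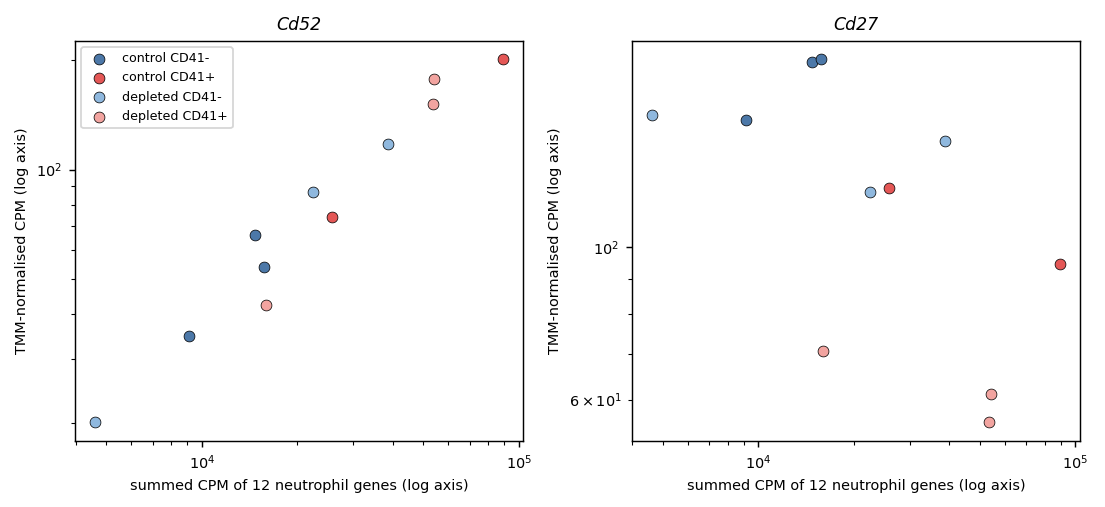
Each point is a library, with the summed CPM of 12 neutrophil genes on the horizontal log axis and the TMM-normalised CPM of Cd52 (left) or Cd27 (right) on the vertical log axis. Cd52 rises with the sum from 20.1 to 202 CPM, while Cd27 varies against it (r = -0.61) with the depleted CD41+ libraries lowest, at 55.6 to 70.6 CPM.

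The 9 genes together summed to 444 to 1109 CPM over all libraries, and each list of mature lymphocyte genes summed to less in every library. The B cell sum nevertheless lay above the single levels of Dntt, Satb1, Notch1 and Il7r in each library. The summed level of 11 B cell genes was 129 to 162 CPM in control CD41- cells, 134 to 357 CPM in control CD41+ cells, 57.8 to 195 CPM in depleted CD41- cells and 102 to 212 CPM in depleted CD41+ cells, with Pax5 at 0 in both control groups. It was highest and lowest in the same libraries as Dntt. Over the 11 libraries the log2 B cell sum correlated with log2 Dntt at r = 0.88, with log2 Cd52 at r = 0.91 and with log2 Il7r at r = 0.62. The part of B cells in the Dntt, Cd52 and Il7r values was not tested. The summed level of 12 T cell genes lay between 24.8 and 52.0 CPM in all libraries, with Cd28 at 0 throughout and Cd3e at 0 in control CD41+ and depleted CD41- cells. The sum of 8 natural killer cell genes was 93.9 to 138 CPM in control CD41- cells, 179 to 236 CPM in control CD41+ cells, 64.3 to 99.0 CPM in depleted CD41- cells and 113 to 125 CPM in depleted CD41+ cells. Ncr1, Gzma, Prf1 and Klre1 of that list were at 0 in control CD41- and depleted CD41+ cells, and the part of such cells in the results was not tested. The sum of 7 genes of plasmacytoid dendritic cells was 219 to 325 CPM over all libraries.

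Summed levels of genes of other cell types are given beside those of the 9, and the sums themselves were not tested. Macrophage, megakaryocyte, erythroid and stromal sums overlapped between the fractions in depleted mice, and the megakaryocyte sum did so in control mice too. In the order control CD41-, control CD41+, depleted CD41- and depleted CD41+ cells, the sum of 10 macrophage and monocyte genes was 1517 to 1814, 2428 to 7990.3, 791 to 3495 and 1778 to 4801 CPM. In the same order the sum of 15 megakaryocyte and platelet genes was 1671 to 2254, 2092 to 2742, 1021 to 1413 and 1329 to 1722 CPM, that of 12 erythroid genes 2954 to 4832, 5274 to 6516, 2956 to 4576 and 4079 to 5424 CPM, and that of 12 endothelial and stromal genes 132 to 173, 214 to 358, 111 to 412 and 336 to 541 CPM. In CD41+ cells 9 of 14 tested megakaryocyte genes were called higher (median 1.56), and 4 of 9 endothelial and stromal genes were called higher and 1 lower (median 2.06). Of 12 erythroid genes 2 were called higher (median 1.14), and 0 of 10 macrophage genes were called by edgeR (median 1.12). Over all genes 2.73% were called higher and 2.65% lower. After depletion 7 of the 14 megakaryocyte genes were called lower and 1 higher (median -0.82), against 2.73% and 3.6% of all genes. The part of these transcripts in the values of the 9 genes was not tested.

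Ikzf1 (ENSMUSG00000018654, chr11:11685003-11772926, plus strand) encodes Ikaros, a zinc finger factor that lymphoid development requires. Its levels were 144, 92.4 and 112 CPM in control CD41- libraries, 95.9 and 101 CPM in control CD41+ libraries, 113, 130.1 and 124 CPM in depleted CD41- libraries and 42.3, 118 and 111 CPM in depleted CD41+ libraries. Apart from depleted CD41+ replicate 1, the library with the fewest counts, all libraries lay between 92.4 and 144 CPM. The CD41 difference was -0.31 ± 0.21 (adjusted p = 0.393), and the depletion difference was -0.0012 ± 0.21 (adjusted p = 1), with a sign that changed with the scaling.

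Notch1 (ENSMUSG00000026923, chr2:26457903-26516663, minus strand) encodes the receptor that commits progenitors to the T lineage. It was low, at 5.78, 14.9 and 7.30 CPM in control CD41- libraries, 4.54 and 5.68 CPM in control CD41+ libraries, 8.56, 10.5 and 7.09 CPM in depleted CD41- libraries and 0, 3.92 and 8.74 CPM in depleted CD41+ libraries. The 0 belonged to the library with the fewest counts, in which 3 counts stood for 3.34 CPM. The groups overlapped after depletion, and neither the CD41 difference (-0.86 ± 0.48, adjusted p = 0.302) nor the depletion difference (-0.09 ± 0.48, adjusted p = 0.94) passed. Exons of opposite-strand genes cover 7.50% (0610009E02Rik) and 2.91% (Gm13568) of the exon bases of Notch1, and those of Crybg2 cover 14.5% of Cd52. These neighbours held 143, 104 and 37 counts in all libraries, and without the strand setting of the counting reads from the shared stretches cannot be assigned.

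Per kilobase of exon, the median levels over all 11 libraries were 80.9 CPM per kb for Limd2, 62.4 for Cd52, 52.5 for Cd27, 34.8 for Ltb, 19.4 for Ikzf1 and 10.6 for Dntt. Notch1 (0.499 CPM per kb), Il7r (0.401) and Satb1 (0.348) stood far below and within each other's ranges. The length was that of all annotated exons merged, 19027 bases for Satb1 and 4663 for Il7r, and the order depends on it. Without division by length, the control CD41- mean was 17 CPM for Satb1 and 0.454 CPM for Il7r. From Limd2 to Dntt the ranges of neighbours in this order overlapped as well. The genes called lower in CD41+ cells thus included both abundant and scarce transcripts.

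Across the 11 libraries, which share the 4 groups, Ltb and Limd2 varied most alike of the 9 genes (r = 0.95 of log2 CPM), followed by Cd27 with Ltb and with Limd2 (r = 0.90 each) and Ltb with Satb1 (r = 0.87). Among 10810 genes averaging 5 CPM or more, those most like Cd27 were H2-Oa (r = 0.988), an MHC class II accessory chain, Procr (r = 0.972), the endothelial protein C receptor of stem cells, and Elmo3 (r = 0.967). Teddm2 (r = 0.972) and Pygm (r = 0.967) were among those most like Ltb. H2-Q6 (r = 0.964), an MHC class I gene of a family of near copies, Shisa5 (r = 0.961) and Crebrf (r = 0.955) were most like Limd2, and Tob1 (r = 0.932), Tapt1 (r = 0.921) and Smarcd2 (r = 0.915) most like Satb1. Ikzf1 was matched by Sin3a (r = 0.980), a corepressor scaffold that Ikaros is known to bind, Etv6 (r = 0.960) and Zfp384 (r = 0.956). Notch1 was matched by Pld1 (r = 0.951), Gltp (r = 0.948) and Rbfox2 (r = 0.940), and Dntt by Gabarap (r = 0.925) and 1700040L08Rik (r = 0.899). Il7r, near the limit of counting, was matched by Pusl1 (r = 0.930), Itpa (r = 0.929) and Atp6v0c (r = 0.923).

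Other genes of lymphoid priming were read from a list of 20, of which 18 were tested. In CD41+ cells 4 were called lower and 1 higher, with a median log2 fold change of -0.38, where 2.65% of all genes were called lower and 2.73% higher and the median was -0.03. Flt3, the receptor that marks lymphoid-primed progenitors, stood at 135 ± 38.3 CPM in CD41- and 35.3 ± 7.67 CPM in CD41+ cells of control mice (n = 3 and 2), and at 100.2 ± 32.8 and 24.7 ± 9.33 CPM after depletion (n = 3 each). Sox4, a factor of B and T cell progenitors, was lower by -1.34 ± 0.22 (adjusted p = 0.0049), Il2rg, the common gamma chain with which the Il7r protein pairs, by -0.99 ± 0.18 (adjusted p = 0.00846), and Bcl11a, a factor needed for B cells, by -0.73 ± 0.13 (adjusted p = 0.006). Mef2c, named here after its value was seen, was higher by 0.50 ± 0.13 (adjusted p = 0.0371), a call kept without control CD41+ replicate 2, depleted CD41+ replicate 2 or depleted CD41- replicate 3 and lost without any other library (adjusted p up to 0.158). Within control mice the CD41 difference was -1.96 for Sox4 (adjusted p = 0.00926) and -1.15 for Bcl11a (adjusted p = 0.00751). Within depleted mice it was -0.73 for Sox4 (adjusted p = 0.441) and -0.31 for Bcl11a (adjusted p = 0.621), so neither passed there. Il2rg passed neither within control mice (-0.88, adjusted p = 0.0996) nor within depleted mice (-1.09, adjusted p = 0.0993). After depletion 0 of the 18 were called by edgeR, with a median of -0.12. The smallest p-values were those of Rag2, a recombinase subunit (2.68 ± 1.03, unadjusted p = 0.0209, adjusted p = 0.147), and Stat5b, which acts below cytokine receptors (-0.48 ± 0.21, unadjusted p = 0.0393, adjusted p = 0.206). Summed over libraries of unequal depth, Rag2 had 7 and 3 counts in the control CD41- and CD41+ groups and 80 and 32 counts after depletion. Scaled, these were means of 0.611 ± 1.06 and 0.387 ± 0.547 CPM in control mice. In depleted mice they were 3.53 ± 2.26 and 2.66 ± 2.62 CPM.

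Lymphotoxin beta signals through its receptor to noncanonical NF-kB, and Cd27 to the same route. Of 12 tested genes of these pathways, 1 was lower in CD41+ cells, Relb, the NF-kB subunit at the end of that route (-1.36 ± 0.31, adjusted p = 0.0219), against 2.65% of all genes, and the median was -0.34. Relb averaged 18.3 ± 5.09 CPM in CD41- cells of control mice and 6.53 ± 2.44 CPM in their CD41+ cells, and lost its call without control CD41+ replicate 1 (adjusted p = 0.0933) or depleted CD41- replicate 2 (adjusted p = 0.059). After depletion 1 was lower, Birc2, a ubiquitin ligase that restrains it (-0.56 ± 0.14, adjusted p = 0.0327), against 2.73% of all genes, and the median was -0.31. The Birc2 call was kept without control CD41- replicate 3, control CD41+ replicate 2 or depleted CD41+ replicate 1 or 2 and lost without any other library (adjusted p up to 0.177). The CD41 difference of Relb passed neither within control mice (-1.48, adjusted p = 0.0975) nor within depleted mice (-1.23, adjusted p = 0.325). Cd70, the ligand of the Cd27 protein, was at 0 in every library.

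Of 15 tested partners of Ikaros and Satb1 in chromatin complexes, 2 were lower in CD41+ cells, against 2.65% of all genes, with a median of -0.24. These were the remodeller ATPases Chd3 (-1.73 ± 0.35, adjusted p = 0.0139) and Chd4 (-1.07 ± 0.25, adjusted p = 0.0253). Chd3 lost its call without control CD41+ replicate 1 (adjusted p = 0.0638), and Chd4 lost it without control CD41- replicate 1, control CD41+ replicate 1 or 2, or depleted CD41- replicate 1 or 3 (adjusted p from 0.0526 to 0.108). Within control mice the CD41 difference was -2.61 for Chd3 (adjusted p = 0.0247) and -1.65 for Chd4 (adjusted p = 0.0398). Within depleted mice it was -0.84 for Chd3 (adjusted p = 0.608) and -0.48 for Chd4 (adjusted p = 0.713), so neither passed there. After depletion 1 of the 15 was higher, Rbbp7, a histone-binding subunit (0.50 ± 0.10, adjusted p = 0.0108), against 3.6% of all genes called higher, and the median was 0.20. In CD41- cells Rbbp7 went from 542 ± 41.3 to 856 ± 56.6 CPM. In CD41+ cells it went from 659 ± 12.3 to 832 ± 48.6 CPM, and that difference was not called (0.34 ± 0.15, adjusted p = 0.381). The averaged Rbbp7 difference was 0.47 to 0.53 over the fits without 1 library, and its call was lost without control CD41+ replicate 1.

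Of 20 tested genes of the Notch pathway, 1 was lower in CD41+ cells, the coactivator Maml2 (-1.30 ± 0.32, adjusted p = 0.0292), a share near the 2.65% of all genes, and the median was -0.08, near the -0.03 of all genes. The Maml2 call was lost without control CD41- replicate 3, control CD41+ replicate 1, depleted CD41- replicate 2 or 3 or depleted CD41+ replicate 2 (adjusted p from 0.0555 to 0.121). The CD41 difference of Maml2 was -1.93 within control mice (adjusted p = 0.0507) and -0.67 within depleted mice (adjusted p = 0.679). By edgeR 0 of the 20 were called after depletion, with a median of -0.06. The smallest p-values there were those of Mfng, a glycosyltransferase that modifies Notch receptors (-0.48 ± 0.15, unadjusted p = 0.00614, adjusted p = 0.0733), and Psen2, a subunit of the protease that releases their inner part (-0.38 ± 0.17, unadjusted p = 0.0387, adjusted p = 0.204). With the neutrophil sum as a covariate, the CD41 differences of Il2rg (-0.96, adjusted p = 0.0806), Mef2c (0.50, adjusted p = 0.178), Relb (-1.38, adjusted p = 0.15), Chd3 (-1.84, adjusted p = 0.0824), Chd4 (-1.07, adjusted p = 0.138) and Maml2 (-1.54, adjusted p = 0.107) were not called, with fold changes close to or larger than those without it.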

How the data were processed

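Per the labels' protocols, poly-dT primed cDNA of the sorted cells was amplified, tagmented and sequenced. The submitters' processing notes name cutadapt, STAR and HTSeq 0.6.1p1, and the builds GRCm38 and mm10. The deposited values are the authors' raw counts per gene. Strand treatment and annotation release, not given in the sources used here, affect genes with overlapping neighbours.

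Identifiers were matched to GENCODE M21 (49326 of 49585 entries). Libraries were grouped by their labels, with replicates numbered in order of deposit. Genes were kept by filterByExpr (minimum count 10, minimum total 15), normalised by TMM and fitted with the robust quasi-likelihood model of edgeR 4.0.16 in R 4.3.3, with 1 coefficient per group, and each of 7 comparisons was adjusted by Benjamini-Hochberg at 0.05. Log2 CPM for likeness used a prior count of 2. The members and the 16 gene lists (201 symbols) were chosen with earlier results of these data known. Genes named beside the 9 were, per list of lymphoid priming, chromatin partners, Notch and TNF pathways, at most 4 called genes with the smallest p in either average, or the 2 with the smallest p where 0 were called, and the 3 genes of highest r per member, some of which are not reported here.

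Other settings tried were DESeq2 1.42.0, RLE factors, scaling by library size alone, no filter, the compared groups only, a block of consecutive sample numbers, leaving out each library and, added after seeing the data, the neutrophil covariate. Where 1 control CD41+ library was left out, the other was assumed to vary like the other groups. The procedure was also run on counts simulated from the spread that edgeR fitted to these libraries, with changes planted. Only the median of the planted changes was checked, which cannot show that the calls in the real data are right. Python 3.11.15 with matplotlib 3.10.9 drew the figures.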

Additional observations from a re-analysis of the deposited data

How the results depend on the processing

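The calls of Ltb and Limd2 in both averages and of Cd27 in the CD41 average were kept under every alternative run. Counts of called genes changed more with the settings. Without a filter they were 1674 (CD41 average, 724 in the report's fit), 1142 (control mice, 352), 387 (depleted mice, 26), 1336 (depletion average, 851), 862 (depletion in CD41- cells, 429), 317 (depletion in CD41+ cells, 14) and 178 (difference of responses, 0). By DESeq2 they were, in the same order, 1355, 951, 191, 1367, 817, 250 and 34. With the compared groups only they were 143 in control mice and 0 for depletion in CD41+ cells, and with the neutrophil covariate 129 (CD41 average), 103 (control mice) and 13 (depleted mice). Leaving out 1 library gave 300 to 788 (CD41 average), 48 to 545 (control mice), 5 to 32 (depleted mice), 291 to 1060 (depletion average), 169 to 560 (CD41- cells), 0 to 57 (CD41+ cells) and 0 to 0 (difference of responses). The causes of these shifts were not tested.

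Of the 9 genes, the number called in control mice (1) was 2 with library size alone, 2 without a filter, 3 by DESeq2, 2 with the block, and 0 to 1 without 1 library. Of the 2 called in control mice without a filter, 1 was higher in CD41+ cells and 1 lower, and the same held with the block. Under each of these settings 5 were called in the CD41 average, 1 higher and 4 lower. In depleted mice (3) the number called was 0 with the covariate and 0 to 3 without 1 library. For depletion in CD41+ cells (1) it was 2 without a filter, 3 by DESeq2, 0 with the compared groups only and 0 to 1 without 1 library. Without 1 library it was 3 to 4 in the CD41 average, 2 to 3 in the depletion average and 1 to 2 for depletion in CD41- cells.

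Values that were not called changed sign in some fits. These were the CD41 average of Dntt (-1.11 with the covariate, -0.65 to 0.47 without 1 library) and of Cd52 (-0.33 with the covariate). Others were the depletion averages of Ikzf1 (3.3e-05 with RLE, 0.02 with library size alone, 0.02 without a filter, -0.11 to 0.15 without 1 library), Notch1 (-0.51 to 0.16) and Cd52 (-0.07 to 0.64). The Satb1 difference of responses was -0.04 with the replicate block and -0.85 to 0.66 without 1 library. The labels state no pairing. Deviations of libraries with consecutive numbers correlated at 0.0801 and 0.0977 in control and 0.228, 0.343 and 0.207 in depleted mice, and the replicate block gave 158 called genes in depleted mice and 2 in the difference of responses. The 2 control CD41+ libraries, and the few counts of Satb1, Il7r and Notch1, limit what could be detected.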

Other observations

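Of 12 genes known from long-term stem cells, 5 were called lower in CD41+ cells and 0 higher by edgeR, against 2.65% and 2.73% of all genes, and their median difference was -0.53 on the log2 scale. Hlf, a transcription factor of stem cells, and Procr, the endothelial protein C receptor, each differed by -1.42 ± 0.17 (adjusted p = 0.000928), and both were called under all 17 alternatives. Fgd5, a stem cell marker, differed by -1.25 ± 0.32 (adjusted p = 0.0385), Mllt3, a reader of histone acetylation, by -0.85 ± 0.19 (adjusted p = 0.0216), and Cd34, a surface sialomucin of progenitors, by -0.57 ± 0.11 (adjusted p = 0.0096). The neutrophil covariate ended the calls of Fgd5 (-0.98, adjusted p = 0.27), Mllt3 (-0.47, adjusted p = 0.202) and Cd34 (-0.56, adjusted p = 0.0853). The Mllt3 call was also lost without control CD41+ replicate 2, depleted CD41- replicate 2 or depleted CD41+ replicate 3 (adjusted p from 0.0501 to 0.108). The Fgd5 call was kept without control CD41- replicate 1 or 2 or depleted CD41+ replicate 2 and lost without any other library (adjusted p up to 0.132).

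After depletion 3 of the 12 were called lower, against 2.73% of all genes, and 0 higher, with a median of -0.42. Mllt3 differed by -0.85 ± 0.19 (adjusted p = 0.018), a call lost without control CD41+ replicate 1, depleted CD41- replicate 1 or depleted CD41+ replicate 3 (adjusted p up to 0.119). Hlf differed by -0.70 ± 0.16 (adjusted p = 0.0232), a call lost without control CD41- replicate 1, control CD41+ replicate 1 or depleted CD41- replicate 1 or 3 (adjusted p up to 0.131). Meis1, a homeobox factor, differed by -0.42 ± 0.11 (adjusted p = 0.0423), a call kept without control CD41+ replicate 2, depleted CD41+ replicate 1 or depleted CD41- replicate 2 and lost without any other library (adjusted p up to 0.212). It was also lost with library size alone (adjusted p = 0.0707) and without a filter on low counts (adjusted p = 0.0779). These genes were named after their values were seen.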
